A study of Danio rerio with 186 samples.

Results

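The 10 genes described here encode folding helpers of the endoplasmic reticulum (ER): hspa5, hsp90b1, pdia3, pdia4, pdia6, p4hb, canx, manf, sdf2l1 and creld2. They were taken by gene name from a table of 31954 gene rows, and each name matched exactly 1 row. Their reads were measured by Smart-Seq2, which makes full-length cDNA from each cell in its own well, in single sorted cells of the zebrafish pancreas at 30 days post fertilization. All fish carried Tg(ins:BB1.0L), a transgene driven by the insulin promoter, together with TgBAC(sst1.1:memEGFP), which places membrane EGFP under the control of the somatostatin gene sst1.1, and all are labelled as grown normally.

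The cells came from 3 sort gates. Requiring 500 detected genes and 50000 gene reads kept 174 of 186 cells: 61 of 66 sst1.1+ cells and 24 of 27 ins+ cells of plate 4, and 57 of 60 sst1.1+ ins+ cells and 32 of 33 ins+ cells of plate 3. The plate is read from a number in the sample titles. By medians over cells, the gates followed their names in these 2 hormones. The share of sst1.1 in the ins plus sst1.1 reads had a median of 99.9% in sst1.1+ cells and 39% in sst1.1+ ins+ cells. It was 0.00985% in ins+ cells of plate 4 and 0.00602% in ins+ cells of plate 3. Single cells departed from this: 45 of 57 sst1.1+ ins+ cells held at least 5% of their gene reads in each hormone. In the lowest sst1.1+ cells, ins plus sst1.1 took only 0.119% and 0.212% of gene reads. Other hormones were read too and differed between the pools, including the ins+ pools: a list of 7 genes of other endocrine cells summed to 34625 CPM in pooled sst1.1+ and 730.4 CPM in pooled ins+ cells of plate 4, and to 18729 CPM in pooled sst1.1+ ins+ and 14061.5 CPM in pooled ins+ cells of plate 3. A single cell held 72.9% of these reads in the ins+ pool of plate 4 and another 53.3% in that of plate 3. The labels do not name the fish. A gate on a plate is therefore a single sample, cells are not replicates of a gate, and no test between gates was possible. The only gate present on both plates is ins+, and its 2 pools give the single measure of how far pools of one gate differ.

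Kept cells held 84778 to 895868 gene reads. The median cell of each gate held 556705 gene reads (sst1.1+), 536886 (ins+, plate 4), 484520 (sst1.1+ ins+) and 422832 (ins+, plate 3), so depth per cell was of one order in all gates. Other measures moved with the gates: the median number of detected genes was 3616 in sst1.1+ cells against 2746.5 in ins+ cells on plate 4, and 4999 in sst1.1+ ins+ cells against 2564 in ins+ cells on plate 3. Gates also filled different well rows, sharing only row C of plate 4 and row F of plate 3. The level of a gene is given as counts per 1000000 gene reads (CPM), either of a cell or of the summed reads of all kept cells of a gate, called a pool. Intervals in brackets are exact 95% intervals for counting error only and do not cover differences between cells or fish.

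Proteins bound for secretion are threaded into the ER, where chaperones hold them while they fold, oxidoreductases join their cysteines by disulfide bonds, and lectin chaperones retain unfinished glycoproteins. Both insulin and somatostatin are made this way as disulfide-bonded prohormones. When unfolded protein accumulates, the unfolded protein response, run in vertebrates by the sensors Ire1, Perk and Atf6, raises transcription of many of these genes. The members fall into 4 roles: the Hsp70 and Hsp90 chaperones of the ER lumen (hspa5 and hsp90b1), the protein disulfide isomerases (pdia3, pdia4, pdia6 and p4hb), the membrane lectin canx, and a group of smaller ER proteins known in mammals as targets of the unfolded protein response (manf, sdf2l1 and creld2).

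In pooled CPM, the 10 genes together were higher in sst1.1+ cells than in ins+ cells, and to a smaller degree in sst1.1+ ins+ cells. Their summed level was 4549 CPM in the sst1.1+ pool and 1191 CPM in the ins+ pool of plate 4, a ratio of 3.82 (3.76 to 3.88). It was 1992 CPM in pooled sst1.1+ ins+ cells and 1192 CPM in pooled ins+ cells of plate 3, a ratio of 1.67 (1.64 to 1.70). The ins+ pools of plate 4 and plate 3 had a ratio of 0.999 (0.977 to 1.02), closer to 1 than either ratio between gates. The medians over cells were 1278 CPM in ins+ cells of plate 4 and 858 CPM in those of plate 3, further apart than the pools. They were 3701 CPM in sst1.1+ and 1655 CPM in sst1.1+ ins+ cells. A single cell held 12.9% of these reads in the ins+ pool of plate 3. Single genes differed more between the ins+ pools, with ratios from 0.384 (manf) to 2.75 (p4hb).

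The change was not spread evenly over the genes. With 1 CPM added to both pools, 6 of 10 genes were over 2-fold higher in sst1.1+ than in ins+ cells on plate 4 (hspa5, hsp90b1, pdia3, pdia4, manf and creld2), 0 were over 2-fold lower and 4 lay within 2-fold. Of all 2086 genes with at least 50 CPM in either of these pools, 16% were over 2-fold higher and 12.7% over 2-fold lower. The median log2 ratio was 1.56 for the 10 genes and 0.03 for all genes. On plate 3, 5 of 10 genes were over 2-fold higher in sst1.1+ ins+ than in ins+ cells (hspa5, hsp90b1, pdia4, p4hb and creld2) and 0 were lower, against 6.40% higher and 5.64% lower of 1703 genes. The median log2 ratio there was 0.84 for the 10 genes and -0.08 for all genes. Not every member reached 50 CPM: 8 did in a pool of plate 4 and 6 in a pool of plate 3, and the counts over 10 include those that did not. At the same minimum as all genes, 5 of 8 members were over 2-fold higher on plate 4 and 3 of 6 on plate 3. Some members reached that minimum only in the pool where they were high. On plate 4 these were pdia4, manf and sdf2l1, in the sst1.1+ pool. On plate 3 it was pdia4, in the sst1.1+ ins+ pool. The counts at this minimum are therefore descriptions.

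**Figure D1:**
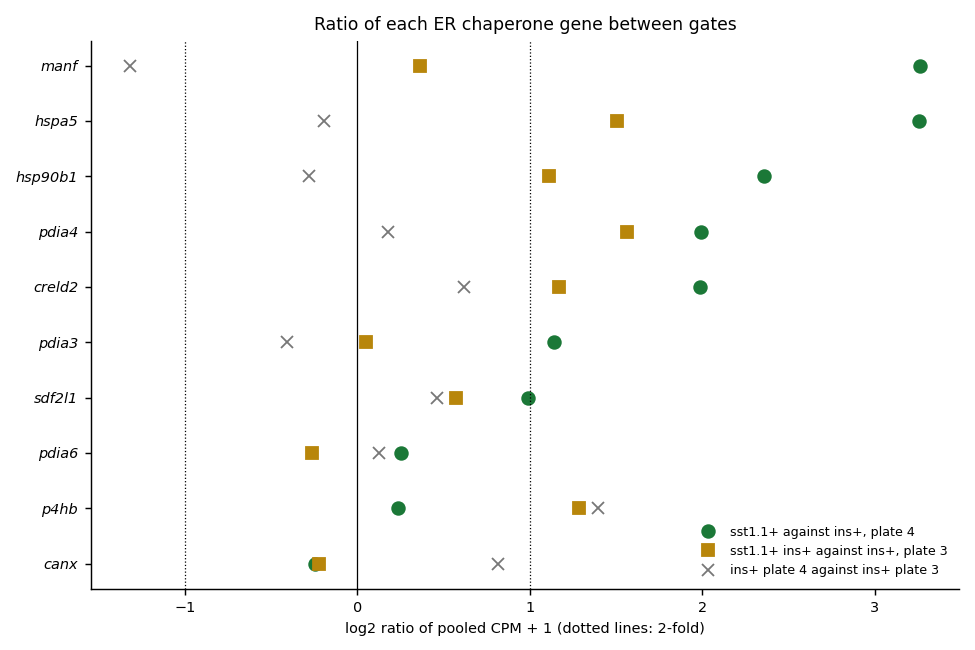
Log2 ratio of pooled CPM + 1 (horizontal axis) for each of the 10 genes (vertical axis), for sst1.1+ against ins+ cells on plate 4 (circles), sst1.1+ ins+ against ins+ cells on plate 3 (squares) and the ins+ pools of plate 4 against plate 3 (crosses), with dotted lines at 2-fold. For hspa5 and hsp90b1 both gate ratios lie right of the 2-fold line and the cross between the ins+ pools lies near 0, while for p4hb the cross lies as far out as the plate 3 ratio.

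Between the ins+ pools, 1 of 10 genes was over 2-fold higher on plate 4 (p4hb) and 1 was over 2-fold lower (manf), beside 9.96% higher and 4.18% lower of 1867 genes. Those 1867 genes had at least 50 CPM in either ins+ pool, which p4hb and manf did not reach. Of the 5 members at that minimum, 0 were over 2-fold higher and 0 lower. The median log2 ratio of the 10 genes was 0.15 there, and that of all genes 0.13. The plate 3 ratio of p4hb was 2.54, beside 2.75 between these pools of one gate. The ratio of manf between the ins+ pools was 0.384, a larger difference than its plate 3 ratio of 1.30 and a smaller one than its plate 4 ratio of 10.3.

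hspa5 encodes BiP, the Hsp70 of the ER, which binds unfolded chains and holds the stress sensors inactive. In sst1.1+ cells its level ran from 18.7 CPM through a median of 1871 CPM to 10225 CPM, against 4.39, 136 and 876 CPM in ins+ cells of plate 4. Of 61 sst1.1+ cells, 58 lay above the ins+ median, 48 above the highest ins+ cell of that plate and 27 above all ins+ cells of both plates. In sst1.1+ ins+ cells it ran from 13.9 CPM through 683 CPM to 4766 CPM, against 0, 170 and 2129 CPM in ins+ cells of plate 3. Here 49 of 57 sst1.1+ ins+ cells lay above the ins+ median and 4 above the highest ins+ cell. That highest cell, at 2129 CPM, held 23.8% of its reads in glucagon, ghrelin and other somatostatin genes and stood apart from the next ins+ cell at 892 CPM, which 19 of 57 sst1.1+ ins+ cells exceeded. With or without it the distributions overlapped more than on plate 4, where leaving out the highest ins+ cell kept the count at 48 of 61.

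The pooled hspa5 ratio was 9.61 (9.28 to 9.95) on plate 4, with 2507 CPM in sst1.1+ cells and 261 CPM in ins+ cells. It was 2.85 (2.75 to 2.94) on plate 3, with 851 CPM in sst1.1+ ins+ cells and 299 CPM in ins+ cells. The ins+ pools of plate 4 and plate 3 differed by a ratio of 0.872 (0.833 to 0.913). Reads of hspa5 made up 55.1% of the reads of the 10 genes in sst1.1+ cells and 21.9% in ins+ cells of plate 4, and 42.7% for sst1.1+ ins+ cells and 25.1% for ins+ cells of plate 3. A single ins+ cell held 22.4% of the hspa5 reads of the plate 3 ins+ pool, and without the top cell of each pool the plate 3 ratio was 3.34.

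hsp90b1 encodes Grp94, the Hsp90 of the ER, which takes over a narrower set of clients after BiP. Its per-cell level ran from 0 CPM through a median of 529 CPM to 2823 CPM in sst1.1+ cells, against 0, 28.4 and 677 CPM in ins+ cells of plate 4. No read was found in 3 of 61 sst1.1+ cells and in 10 of 24 ins+ cells. In sst1.1+ ins+ cells it ran from 0 through 328 to 1537 CPM, against 0, 105 and 885 CPM in ins+ cells of plate 3, with no read in 2 of 57 and 9 of 32 cells. The groups overlapped in both comparisons, with 24 of 61 sst1.1+ cells and 3 of 57 sst1.1+ ins+ cells above the highest ins+ cell of their plate. Without that single ins+ cell the counts were 27 of 61 sst1.1+ cells and 6 of 57 sst1.1+ ins+ cells. The pooled ratio was 5.17 (4.92 to 5.43) on plate 4 and 2.17 (2.07 to 2.27) on plate 3, and 0.823 between the ins+ pools of plate 4 and plate 3.

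**Figure D2:**
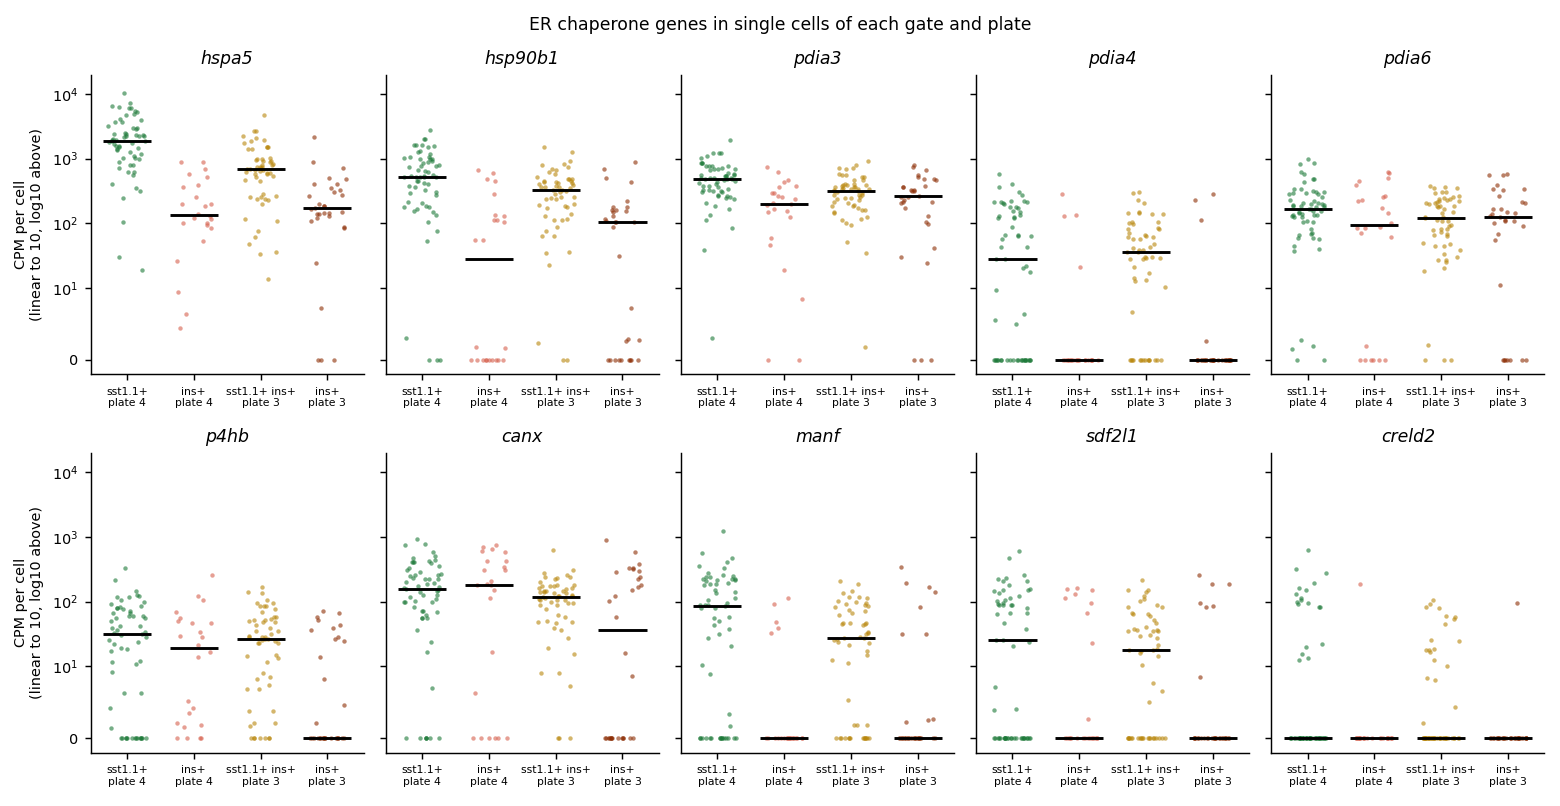
CPM per cell (vertical axis, linear to 10 and log10 above) of the 10 genes in every kept cell of the 4 gate-and-plate groups, 1 point per cell, with black bars at the group medians. hspa5 and hsp90b1 sit highest in sst1.1+ cells, while pdia6 spans a similar range in all 4 groups, canx is at 0 in 14 of 32 ins+ cells of plate 3, and creld2 is at 0 in most cells of each group.

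The disulfide isomerases split. pdia4 encodes ERp72, which like the other members of its family forms and reshuffles disulfide bonds. It was at 91.3 CPM in pooled sst1.1+ cells and 22.2 CPM in pooled ins+ cells of plate 4, a ratio of 4.12 (3.64 to 4.68), and at 59.6 CPM in pooled sst1.1+ ins+ cells and 19.5 CPM in pooled ins+ cells of plate 3, a ratio of 3.05 (2.68 to 3.49). It was also found in more cells: at least 5 reads were found in 37 of 61 sst1.1+ cells and 4 of 24 ins+ cells on plate 4, and in 42 of 57 sst1.1+ ins+ cells and 3 of 32 ins+ cells on plate 3. With each cell thinned to 100000 gene reads these shares were 44.3% in sst1.1+ and 12.5% in ins+ cells of plate 4, and 42.9% in sst1.1+ ins+ and 9.38% in ins+ cells of plate 3. Few ins+ cells carried its reads, so 1 cell held 48.2% of them in the plate 4 ins+ pool and 1 cell 37.1% in the plate 3 ins+ pool. Without the top cell of each pool the ratios were 7.01 on plate 4 and 4.37 on plate 3.

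pdia3 encodes ERp57, which works with calnexin and calreticulin on glycoproteins. Per cell it ran from 3 CPM through a median of 482 CPM to 1957 CPM in sst1.1+ cells, against 0, 203 and 749 CPM in ins+ cells of plate 4. In sst1.1+ ins+ cells it ran from 1.74 through 312 to 921 CPM, against 0, 261 and 808 CPM in ins+ cells of plate 3. The sst1.1+ cells were shifted up, with 54 of 61 above the ins+ median, and the sst1.1+ ins+ cells covered nearly the same range as the ins+ cells. The pooled ratio was 2.21 (2.13 to 2.30) on plate 4 and 1.04 (0.998 to 1.07) on plate 3.

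pdia6 encodes P5, a disulfide isomerase that in mammals also acts on the sensor Ire1. It was at 218 CPM in sst1.1+ and 182 CPM in ins+ cells of plate 4, a ratio of 1.19, and at 140 CPM in sst1.1+ ins+ and 167 CPM in ins+ cells of plate 3, a ratio of 0.833. p4hb encodes the founding member of the family, PDI, which is also the beta subunit of prolyl 4-hydroxylase. It was at 45.5 CPM in sst1.1+ and 38.4 CPM in ins+ cells of plate 4, and at 35.5 CPM in sst1.1+ ins+ and 14 CPM in ins+ cells of plate 3. The plate 3 ratio was 2.54 (2.17 to 2.99), and the ratio between the ins+ pools of plate 4 and plate 3 was 2.75 (2.32 to 3.27). Set against the ins+ cells of both plates together, the log2 ratio of p4hb in sst1.1+ ins+ cells was 0.45, within 2-fold.

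canx encodes calnexin, the membrane lectin that holds glycoproteins through their trimmed sugars. It was the only member not higher in either comparison of pools: 214 CPM in sst1.1+ and 255 CPM in ins+ cells of plate 4, a ratio of 0.841 (0.807 to 0.877), and 124 CPM in sst1.1+ ins+ and 144 CPM in ins+ cells of plate 3, a ratio of 0.857 (0.810 to 0.906). The medians over cells gave another picture on plate 3, with 118 CPM in sst1.1+ ins+ cells and 36.5 CPM in ins+ cells. There 47 of 57 sst1.1+ ins+ cells lay above the ins+ median, and 14 of 32 ins+ cells held no canx read while 1 ins+ cell reached 906 CPM. The ins+ pools of plate 4 and plate 3 differed by a ratio of 1.77 (1.67 to 1.87), more than either gate comparison.

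manf, sdf2l1 and creld2, like pdia4, had many cells without any read in each group and few reads in ins+ cells. manf encodes a secreted and ER-retained factor that binds BiP. It was at 134 CPM in pooled sst1.1+ cells and 13.1 CPM in pooled ins+ cells of plate 4, a ratio of 10.3 (8.77 to 12.1). It was at 44.2 CPM in pooled sst1.1+ ins+ cells and 34.1 CPM in pooled ins+ cells of plate 3, a ratio of 1.30 (1.16 to 1.45). At least 5 reads were found in 43 of 61 sst1.1+ and 5 of 24 ins+ cells of plate 4, and in 38 of 57 sst1.1+ ins+ and 7 of 32 ins+ cells of plate 3. The 2 ins+ pools differed by a ratio of 0.384 (0.319 to 0.459) for plate 4 against plate 3.

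sdf2l1, which in mammals works with BiP and an Hsp40 partner, was at 70.9 CPM in sst1.1+ and 35.2 CPM in ins+ cells of plate 4, a ratio of 2.01 (1.82 to 2.23) that fell just under 2-fold once 1 CPM was added. It was at 38.2 CPM in sst1.1+ ins+ and 25.4 CPM in ins+ cells of plate 3, a ratio of 1.51 (1.33 to 1.71). creld2 encodes an ER protein with disulfide isomerase activity in mammals. At least 5 reads were found in 19 of 61 sst1.1+ cells and 1 of 24 ins+ cells of plate 4, and in 16 of 57 sst1.1+ ins+ cells and 1 of 32 ins+ cells of plate 3. Every creld2 read of the ins+ cells came from a single cell on each plate, so its pooled ratios of 4.30 for sst1.1+ against ins+ cells (plate 4) and 2.48 for sst1.1+ ins+ against ins+ cells (plate 3) rest on those 2 cells.

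The sst1.1+ ins+ and sst1.1+ cells were sorted on different plates and were compared through the ins+ pool of each plate. Relative to these, 4 of 10 genes were over 2-fold lower in sst1.1+ ins+ than in sst1.1+ cells, beside 13.2% of 2233 genes: hspa5 (log2 -1.75), hsp90b1 (-1.25), pdia3 (-1.09) and manf (-2.90). Those 2233 genes had at least 50 CPM in any pool. At that minimum the count of members was 4 of 8, with manf and sdf2l1 reaching it only in the sst1.1+ pool. The median log2 of the 10 genes was -0.66, that of all genes -0.04. Taken directly, without the ins+ pools, all 10 pooled levels were lower in sst1.1+ ins+ cells, with ratios between 0.330 (manf) and 0.782 (p4hb) and a median log2 of -0.83, against -0.22 for all genes. The set of genes over 2-fold lower also changed. Directly it held hspa5 (log2 -1.56), manf (-1.58) and creld2 (-1.43), while hsp90b1 (-0.97) and pdia3 (-0.68) lay within 2-fold. p4hb changed direction between these readings, with a log2 of 1.05 relative to the ins+ pools and of -0.35 directly. With spike-in reads as the total the relative median was 0.13, beside 0.78 for all genes, so the sign of this median depends on the scaling. Plate and gate cannot be told apart in this comparison.

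Within a plate, the rows of a gate varied less than the gates did on plate 4 and about as much on plate 3. The pooled sum of the 10 genes was 4025 to 5384 CPM over the rows of sst1.1+ cells, and 912 to 1478 CPM over those of ins+ cells on plate 4. On plate 3 it was 1399 to 2626 CPM over the rows of sst1.1+ ins+ cells, and 821 to 1547 CPM over those of ins+ cells. In the shared row C of plate 4, 8 sst1.1+ cells had 4406 CPM and 3 ins+ cells 912 CPM, with hspa5 at 2164 CPM in sst1.1+ and 258 CPM in ins+ cells. In the shared row F of plate 3, 3 sst1.1+ ins+ cells had 1621 CPM and 9 ins+ cells 821 CPM, with hspa5 at 727 CPM in sst1.1+ ins+ and 157 CPM in ins+ cells. The hspa5 difference was thus present within each shared row, over few cells.

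**Figure D3:**
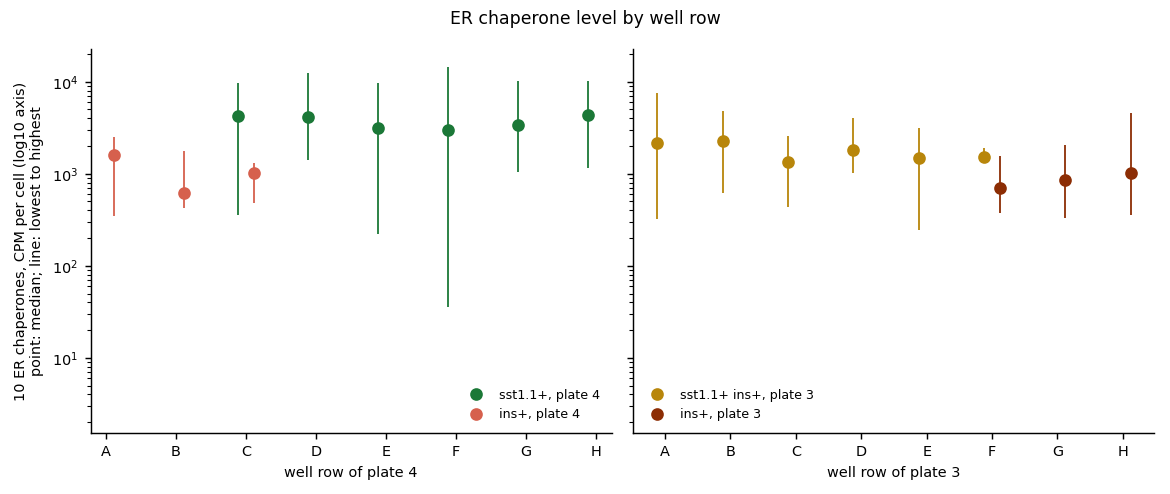
Summed CPM of the 10 genes per cell (vertical axis, log10) by well row (horizontal axis) on plate 4 (left) and plate 3 (right), with points at row medians and lines from the lowest to the highest cell. In row C of plate 4 the sst1.1+ median lies above the ins+ median, and in row F of plate 3 the sst1.1+ ins+ median lies above the ins+ median.

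As a share of gene reads, the hormone load of the gates ran in another order than the level of these genes. The load is the share of ins plus sst1.1 in the gene reads of a cell, with a median of 25.6% in sst1.1+ cells (0.119 to 50.9%), 38% in ins+ cells of plate 4 (18.5 to 44.4%), 37.8% in sst1.1+ ins+ cells (15.6 to 46.2%) and 40.6% in ins+ cells of plate 3 (17.2 to 50.8%). The gate with the lowest median load, sst1.1+, had the highest level of the 10 genes. Per spike-in read the order differed. The median hormone reads per spike-in read were 10.6 in sst1.1+ and 10.5 in ins+ cells of plate 4. On plate 3 they were 24.9 in sst1.1+ ins+ and 11.1 in ins+ cells. Reads of all other genes, per spike-in read, had medians of 30.4 in sst1.1+ and 17.6 in ins+ cells of plate 4. On plate 3 these medians were 45.3 in sst1.1+ ins+ and 16.3 in ins+ cells. Reads of the 10 genes per spike-in read had medians of 0.167 in sst1.1+ and 0.0336 in ins+ cells of plate 4. On plate 3 they were 0.158 in sst1.1+ ins+ and 0.0283 in ins+ cells. The smaller rise on plate 3 seen in pooled CPM did not hold for these medians. Over pools, the values were 0.167 and 0.0336 on plate 4, and 0.136 and 0.0354 on plate 3. There were 55.8 hormone reads for each read of the 10 genes in sst1.1+ cells and 318 in ins+ cells of plate 4, and 181 for sst1.1+ ins+ cells and 335 for ins+ cells of plate 3. A large load lowers the CPM of every other gene, so the sum was also taken per 1000000 gene reads without ins and sst1.1. On that scale it was 6097 in the sst1.1+ pool and 1916 in the ins+ pool of plate 4, and 3119 in pooled sst1.1+ ins+ cells and 1985 in pooled ins+ cells of plate 3.

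Over the cells of a gate, on the scale without the hormones, the sum of the 10 genes had a Spearman correlation with the load of 0.10 in 61 sst1.1+ cells, -0.12 in 24 ins+ cells of plate 4, -0.43 over 57 sst1.1+ ins+ cells and -0.14 over 32 ins+ cells of plate 3. These cells share a sort and a plate and differ in depth, so the values are descriptions. In sst1.1+ ins+ cells the median sum was 3587 in the 19 cells of lowest load, 2855 in the middle 19 and 1956 in the 19 of highest load. By gene, in sst1.1+ ins+ cells, the correlation was -0.41 for hspa5, -0.45 for hsp90b1, -0.46 for pdia4 and -0.45 for manf. It was between -0.22 and -0.05 for pdia3, pdia6, p4hb, sdf2l1 and creld2, and 0.07 for canx. The median over 2674 genes in these cells was 0.00, with the lowest 5% at or below -0.27, and 0.935% of them were at or below the value of hspa5.

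In the same cells the load went down as the number of detected genes went up (Spearman -0.34), and whether this takes part in the relation was not tested. The sum had a correlation of 0.07 with the number of detected genes and of -0.20 with gene reads. Its correlation with the share of sst1.1 in the load was 0.05. With the load taken as hormone reads per spike-in read in place of a share, the correlation with the sum was -0.18. In sst1.1+ cells the Pearson correlation of log2 values was 0.61, against a Spearman correlation of 0.10. Without the 2 sst1.1+ cells under 5% load, a setting chosen after seeing the data, the Spearman correlation was 0.00. The Pearson correlation was not computed without these cells.

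**Figure D4:**
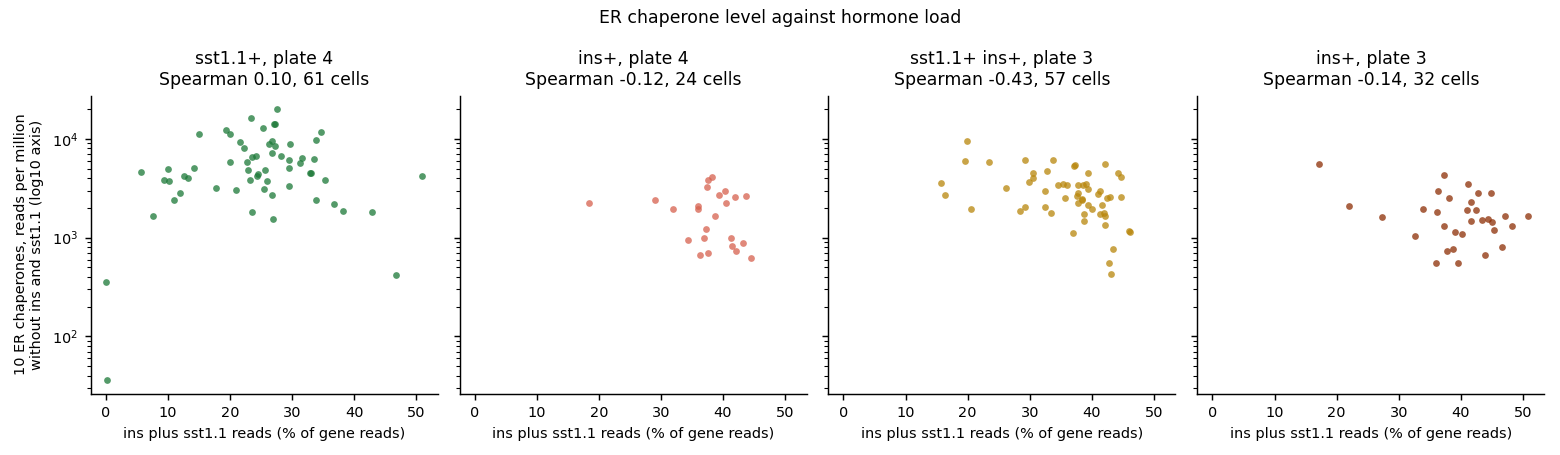
Reads of the 10 genes per 1000000 gene reads without ins and sst1.1 (vertical axis, log10) against the share of ins plus sst1.1 in gene reads (horizontal axis, %) in each cell of the 4 groups, 1 point per cell. A downward slope is visible in sst1.1+ ins+ cells (Spearman -0.43), and 2 sst1.1+ cells stand near 0% load with low levels.

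The members varied together most in the gates where they were high. Over the 45 pairs of the 10 genes, the median Spearman correlation over cells was 0.23 in sst1.1+ cells, 0.07 in ins+ cells of plate 4, 0.15 for sst1.1+ ins+ cells and 0.06 for ins+ cells of plate 3. Low genes have many zeros, and how far this bears on their correlations was not tested. Averaged over the 4 groups, the closest pairs were hspa5 with hsp90b1 (0.52), hsp90b1 with pdia4 (0.40), hspa5 with manf and hspa5 with pdia4 (0.37 each). The least alike were pdia3 and p4hb (-0.13). The 4 genes that pair up are also those whose correlation with the hormone load was lowest in sst1.1+ ins+ cells.

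Among 1002 genes with at least 5 reads in 50% or more of the cells of every group, those whose level over cells was most like the sum of the 10 were mostly cytosolic heat-shock chaperones. By mean Spearman correlation over the 4 groups, they included hsp90aa1.2 (0.51), dnajb1b (0.47), hsp70.1 (0.47), si:ch73-341p18.7 (0.45), hsp70.3 (0.44), hsp70l (0.42), hspa8 (0.40), hsp70.2 (0.38) and ubb (0.38), where the median gene had 0.03. Of the members, hspa5 ranked at 0.47, hsp90b1 at 0.46, pdia6 at 0.27, pdia3 at 0.26 and canx at 0.17, each against the other 9. For hspa5 the value was 0.82 in sst1.1+ and 0.47 in ins+ cells of plate 4. On plate 3 it was 0.57 in sst1.1+ ins+ and 0.007 in ins+ cells. The correlation was higher in the cells sorted for sst1.1: hsp90aa1.2 had 0.79 in sst1.1+ cells and 0.24 in ins+ cells of plate 4, and 0.77 for sst1.1+ ins+ cells and 0.26 for ins+ cells of plate 3. The hsp70 genes and hsp90aa1.2 have near-identical copies, so the split of reads among such copies is uncertain.

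The summed level of a list of 28 cytosolic and mitochondrial chaperones moved with the 10 genes over cells, with a Spearman correlation of 0.78 in sst1.1+ cells and 0.32 in ins+ cells of plate 4, and 0.76 for sst1.1+ ins+ cells and 0.32 for ins+ cells of plate 3. For 26 immediate-early genes, a list that marks dissociation, it was 0.61 in sst1.1+ cells and -0.07 in ins+ cells of plate 4, and 0.69 for sst1.1+ ins+ cells and 0.06 for ins+ cells of plate 3. Cells were dissociated with enzymes before the sort, and the part of dissociation in the level of the ER chaperones was not tested. Both lists also went down with load in sst1.1+ ins+ cells, with -0.31 for the cytosolic list and -0.48 for the immediate-early list.

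**Figure D5:**
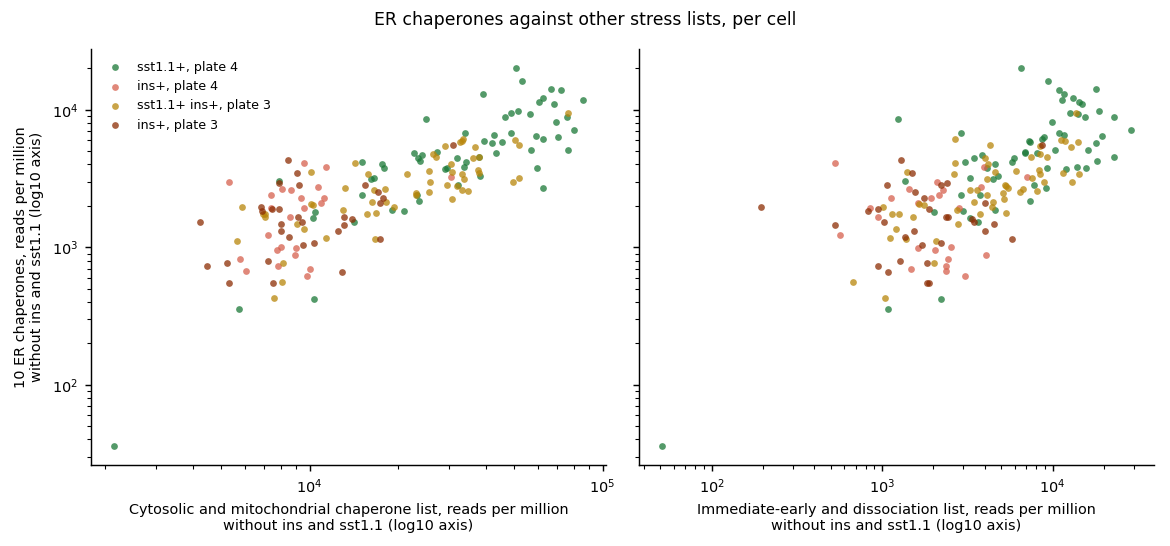
Reads of the 10 ER chaperones (vertical axis) against reads of the cytosolic and mitochondrial chaperone list (left) and of the immediate-early and dissociation list (right), each per 1000000 gene reads without ins and sst1.1 on log10 axes, 1 point per cell. The sst1.1+ and sst1.1+ ins+ cells run along a rising band with the cytosolic list, while most ins+ cells stay at its low end: 1 of 24 ins+ cells of plate 4 and 1 of 32 of plate 3 lie above the sst1.1+ ins+ median of that list.

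Both lists also differed between the gates. Of 22 cytosolic and mitochondrial chaperones with at least 50 CPM in a pool of plate 4, 15 were over 2-fold higher in sst1.1+ cells and 0 lower, with a median log2 ratio of 2.46. The co-chaperone bag3 was at 887 CPM in sst1.1+ and 14.3 CPM in ins+ cells, and hspa4a, an Hsp110 exchange factor, at 647 CPM in sst1.1+ and 29.8 CPM in ins+ cells. The lowest ratios were those of the mitochondrial Hsp70 hspa9, at 78.4 CPM in sst1.1+ and 112 CPM in ins+ cells, and of the mitochondrial co-chaperonin hspe1, at 131 CPM in sst1.1+ and 101 CPM in ins+ cells. On plate 3, 9 of 19 were higher in sst1.1+ ins+ cells and 0 lower, with a median of 0.92. Of 16 immediate-early genes on plate 4, 14 were higher and 0 lower (median 2.21), and of 14 on plate 3, 9 were higher and 0 lower (median 1.48). The transcription factor genes jun and atf3 led this list on plate 4, with jun at 1063 CPM in sst1.1+ and 13.7 CPM in ins+ cells and atf3 at 880 CPM in sst1.1+ and 14.3 CPM in ins+ cells. At its low end fosab was at 1141 CPM in sst1.1+ and 629 CPM in ins+ cells, and btg2 at 135 CPM in sst1.1+ and 80.8 CPM in ins+ cells.

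The other ER folding lists cover oxidative folding, the lectin cycle, partners of BiP, and prolyl isomerases with collagen chaperones. Among their genes with at least 50 CPM in a pool of the plate compared, none had a ratio as high as hspa5 or hsp90b1 on that plate. Below that minimum some did, of which 2 are given here after their values were seen: the Hsp40 gene dnajc3b was at 27.6 CPM in sst1.1+ and 1.99 CPM in ins+ cells of plate 4 and at 9.42 CPM in sst1.1+ ins+ and 0.148 CPM in ins+ cells of plate 3, and the collagen chaperone gene serpinh1b at 31.2 CPM in sst1.1+ and 3.90 CPM in ins+ cells of plate 4. Of 5 further disulfide isomerases and oxidative folding genes with at least 50 CPM on plate 4, 1 was over 2-fold higher in sst1.1+ cells and 0 lower (median 0.06), and of 4 on plate 3, 0 passed 2-fold (median -0.35). txndc12, a thioredoxin-like ER protein, was at 90.6 CPM in sst1.1+ and 30.7 CPM in ins+ cells, and prdx4, the ER peroxiredoxin, at 538 CPM in sst1.1+ and 306 CPM in ins+ cells of plate 4. txndc5 was at 41.6 CPM in sst1.1+ and 51.95 CPM in ins+ cells, and pdia7, which the table names zgc:77086, at 54.2 CPM in sst1.1+ and 55.4 CPM in ins+ cells. On plate 3 txndc12 lay under 50 CPM, at 31.6 CPM in sst1.1+ ins+ and 10.1 CPM in ins+ cells. Its ratio there was 3.14, above the 2.85 of hspa5. The ratio of txndc12 between the ins+ pools of plate 4 and plate 3 was 3.05, against 0.872 for hspa5.

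In the lectin cycle, 1 of 5 genes passed 2-fold on plate 4 (median 0.50) and 0 of 5 on plate 3 (median -0.43). The calreticulin gene calr3a was at 211 CPM in sst1.1+ and 97.8 CPM in ins+ cells of plate 4, and calr at 207 CPM in sst1.1+ and 104 CPM in ins+ cells. The glucosidase subunit prkcsh was at 112 CPM in sst1.1+ and 90.2 CPM in ins+ cells, and the cargo lectin lman1 at 70.29 CPM in sst1.1+ and 53.4 CPM in ins+ cells. On plate 3 calr was at 104 CPM in sst1.1+ ins+ cells and 148 CPM in ins+ cells.

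Of 4 partners of BiP on plate 4, 1 was over 2-fold higher and 1 lower (median 0.75). Of all 2086 genes there, 16% were higher and 12.7% lower. On plate 3, 0 of 3 partners passed 2-fold (median 0.58). The ER exchange factor hyou1 was at 183 CPM in sst1.1+ and 81.8 CPM in ins+ cells of plate 4, and at 112 CPM in sst1.1+ ins+ and 58.4 CPM in ins+ cells of plate 3. The Hsp40 gene dnajc1 was at 99.2 CPM in sst1.1+ and 56.3 CPM in ins+ cells of plate 4, and dnajc3a at 91.7 CPM in sst1.1+ and 56.1 CPM in ins+ cells. sec63, the Hsp40 of the translocon, was at 42.9 CPM in sst1.1+ and 100.3 CPM in ins+ cells of plate 4. On plate 3 sec63 was at 57.8 CPM in sst1.1+ ins+ and 38.4 CPM in ins+ cells. Its ratio between the ins+ pools of plate 4 and plate 3 was 2.62. The prolyl isomerases ppib (656 CPM in sst1.1+ and 377 CPM in ins+ cells) and fkbp2 (282 CPM in sst1.1+ and 187 CPM in ins+ cells) stayed within 2-fold on both plates.

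Of ER-associated degradation, 1 of 5 genes was over 2-fold higher on plate 4 (median 0.51) and 1 of 6 on plate 3 (median -0.15). On plate 4 herpud1, an unfolded-protein response target of that pathway, was at 144 CPM in sst1.1+ and 29.1 CPM in ins+ cells, and on plate 3 at 53.5 CPM in sst1.1+ ins+ and 1.33 CPM in ins+ cells. Its plate 3 ratio was 40.2, above the 2.85 of hspa5, and its plate 4 ratio was 4.96, below the 5.17 of hsp90b1. The ratio of herpud1 between the ins+ pools of plate 4 and plate 3 was 21.9. On plate 4 selenos, which the table names vimp, was at 149 CPM in sst1.1+ and 178 CPM in ins+ cells. ufd1l was at 77.1 CPM in sst1.1+ and 49.2 CPM in ins+ cells, and erlec1 at 51.2 CPM in sst1.1+ and 36.3 CPM in ins+ cells. Of 19 translocation genes on plate 4, 2 were higher and 0 lower (median 0.49), and of 17 on plate 3, 1 was higher and 0 lower (median 0.20). The signal peptidase subunit spcs3 was at 213 CPM in sst1.1+ and 61.8 CPM in ins+ cells, and ssr3, a subunit of the translocon-associated complex, at 68.7 CPM in sst1.1+ and 24.4 CPM in ins+ cells. Another signal peptidase subunit, spcs2, was at 286 CPM in sst1.1+ and 315 CPM in ins+ cells, and srp54 of the signal recognition particle at 72.8 CPM in sst1.1+ and 73.1 CPM in ins+ cells.

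The regulators of the unfolded protein and integrated stress responses were shifted more: 6 of 9 genes were over 2-fold higher and 0 lower in sst1.1+ cells on plate 4 (median 1.76), and 4 of 7 were higher and 0 lower in sst1.1+ ins+ cells on plate 3 (median 1.19). ppp1r15a, a phosphatase subunit that ends the block on translation, was at 552 CPM in sst1.1+ and 68.7 CPM in ins+ cells of plate 4, and at 233 CPM in sst1.1+ ins+ and 54.6 CPM in ins+ cells of plate 3. The pseudokinase trib3 was at 82.6 CPM in sst1.1+ and 11.4 CPM in ins+ cells of plate 4. atf4b was at 306 CPM in sst1.1+ and 317 CPM in ins+ cells, and the protease mbtps1, which cleaves Atf6, at 54.1 CPM in sst1.1+ and 64.2 CPM in ins+ cells. Among the paralogs of the members, only pdia7 reached 50 CPM on plate 4.

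Markers of other pancreatic cells were read in the same pools. The acinar list, of an exocrine cell rich in ER, had 20 of 22 genes matched and none at 50 CPM in a pool, with sums of 186 CPM in sst1.1+ and 58.6 CPM in ins+ cells of plate 4, and 27.9 CPM in sst1.1+ ins+ and 26.3 CPM in ins+ cells of plate 3. The acinar factor rbpjl was at 0 in all 4 pools. Another acinar factor, bhlha15, was at 8.54 CPM in sst1.1+ and 0 CPM in ins+ cells of plate 4. On plate 3 bhlha15 was at 6.32 CPM in sst1.1+ ins+ and 6.58 CPM in ins+ cells. A single cell held 80.7% of the acinar reads in sst1.1+ cells and another 98.6% in ins+ cells of plate 4. Over sst1.1+ cells the acinar sum had a Spearman correlation of -0.11 with the sum of the 10 genes. Without the 2 cells of plate 4 that exceeded 1000 CPM of acinar markers, a setting chosen after seeing the data, the hspa5 log2 ratio on plate 4 was 3.30. The duct list has 9 genes, and its sum was 594 CPM in sst1.1+ and 145 CPM in ins+ cells of plate 4, and 351 CPM in sst1.1+ ins+ and 214 CPM in ins+ cells of plate 3. All 3 of its genes that reached 50 CPM on plate 4 were over 2-fold higher: krt8 was at 314 CPM in sst1.1+ and 109 CPM in ins+ cells, krt18a.1, which the table names krt18, at 153 CPM in sst1.1+ and 21.4 CPM in ins+ cells, and epcam at 72.8 CPM in sst1.1+ and 9.32 CPM in ins+ cells. On plate 3, 1 of 3 was over 2-fold higher, with krt8 at 190 CPM in sst1.1+ ins+ and 98.2 CPM in ins+ cells and anxa4 at 35.6 CPM in sst1.1+ ins+ and 53.4 CPM in ins+ cells. Of the duct genes under 50 CPM in both pools of plate 4, cftr and sox9b were at 0 in sst1.1+ cells. In ins+ cells of plate 4 these were at 1.91 and 0.239 CPM. The others were higher in sst1.1+ than in ins+ cells of plate 4, with anxa4 at 42.9 CPM in sst1.1+ and 3.74 CPM in ins+ cells. For nkx6.1 the levels were 5.59 and 0 CPM, for her15.1 3.57 and 0.0797 CPM, and for krt4 1.76 and 0 CPM.

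Alpha-cell markers summed to 26236.5 CPM in sst1.1+ and 8501 CPM in ins+ cells of plate 4, and 8833 CPM in sst1.1+ ins+ and 2661 CPM in ins+ cells of plate 3, with the glucagon genes gcga and gcgb making up nearly all of it. gcga was at 13244 CPM in sst1.1+ and 5711 CPM in ins+ cells of plate 4. There gcgb was at 12989 CPM in sst1.1+ and 2784 CPM in ins+ cells. These are pool levels, and medians over cells ran the other way. On the scale without the hormones, the median alpha-cell sum was 38.4 in sst1.1+ and 848 in ins+ cells of plate 4. On plate 3 it was 593 in sst1.1+ ins+ and 748 in ins+ cells. A single cell held 89.8% of the alpha-cell reads in the ins+ pool of plate 4 and another 76.5% in that of plate 3. The top cell held 18.7% in sst1.1+ and 33.8% in sst1.1+ ins+ cells.

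Of the 7 genes of other endocrine cells, 5 reached 50 CPM on plate 4 and 4 of these were over 2-fold higher in sst1.1+ cells, while 1 of 4 was over 2-fold higher in sst1.1+ ins+ cells on plate 3. The somatostatin gene sst2 was at 6396 CPM in sst1.1+ and 14.9 CPM in ins+ cells of plate 4, and at 4324 CPM in sst1.1+ ins+ and 5281 CPM in ins+ cells of plate 3. gip, which encodes an incretin hormone, was at 2894 CPM in sst1.1+ and 30.3 CPM in ins+ cells of plate 4. The peptide YY gene pyyb was at 1464 CPM in sst1.1+ and 66.2 CPM in ins+ cells of plate 4, and the ghrelin gene ghrl at 94.98 CPM in sst1.1+ and 65.2 CPM in ins+ cells. Over cells, the summed list had a Spearman correlation with the sum of the 10 chaperones of -0.14 in sst1.1+ cells and 0.33 in ins+ cells of plate 4, and of 0.12 for sst1.1+ ins+ cells and 0.25 for ins+ cells of plate 3. Without the cells that held over 5% of their reads in other hormones, counted over ghrl, sst1.2, sst2, gcgb and gcga, leaving 46 sst1.1+, 23 ins+ (plate 4), 50 sst1.1+ ins+ and 29 ins+ (plate 3) cells, the hspa5 log2 ratio was 3.56 on plate 4 and 1.93 on plate 3, against 3.26 and 1.51 with all cells. Endothelial markers summed to at most 0.329 CPM in any pool, blood markers to at most 5.98 CPM and mesenchymal markers to at most 44.4 CPM. The part of duct marker expression and of other hormones in the chaperone levels was not tested.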

How the data were processed

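Per the series' design text and the submitters' processing notes, Trim Galore trimmed the reads, HISAT2 aligned them to GRCz11 and featureCounts assigned them to exons. For these tools, no version or strand setting was found in the labels. The authors deposited raw counts per gene and cell, with no normalization, in a table of 32046 rows, 92 of them spike-ins, which took 5.61% of reads and were kept out of gene totals. Every column matched a cell through its library name.

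Cells needed at least 500 detected genes and 50000 gene reads. Counts were summed by gate and plate and scaled to CPM. Pools carry exact Poisson intervals, ratios the exact conditional binomial interval, both at 95% and for counting error only. Log2 ratios are of CPM plus 1, so changes of low genes are understated, and a gene counts as called over 2-fold. Depth was checked by thinning each cell to 100000 gene reads. Of the shares of cells with at least 5 reads of a member, 30 stayed within the 95% interval of the unthinned share and 10 left it. No test was run because each gate on each plate is 1 sample and the labels name no animals. No doublet caller was run on these sorted wells.

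All 10 members are named. From each other list, the 2 highest and 2 lowest plate 4 ratios among genes reaching 50 CPM are named, and the 10 genes most like the summed members, of which 1 is not reported here. Of the listed symbols, 226 matched by name, 10 by gene ID and 5 by a change of case, while 18 had no match. The members and lists were chosen with earlier results of these data known, so their direction is no independent evidence.

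Alternatives were other totals (without ins and sst1.1, without the row AC024175.4, spike-ins), TMM factors from edgeR 4.0.16 and size factors from DESeq2 1.42.0 (R 4.3.3), other cell filters, means or medians over cells, leaving out single cells or cell groups, both plates' ins+ cells together, shared well rows, a pseudocount of 5 CPM and a minimum of 10 CPM. Python 3.11.15, numpy 2.4.6, scipy 1.17.1, pandas 2.3.3 and matplotlib 3.10.9 were used. The ratio intervals and 2-fold calls were tested on simulated Poisson counts, which hold no spread between cells. Thinning and the rank correlation were run on cases with a known answer. The gene ranking and the lists were not simulated.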

Additional observations from a re-analysis of the deposited data

How the results depend on the processing

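The hspa5 and hsp90b1 ratios stayed over 2-fold higher in all 18 settings of both plate comparisons, and manf and pdia4 did so on plate 4. The 18 include the main setting, and some settings could not move a ratio. Requiring 5% of each hormone in sst1.1+ ins+ cells left plate 4 unchanged. The limits on hormone load and acinar markers removed no cell of plate 3. On plate 4 the count over 2-fold ranged from 5 to 8 of 10, and the median log2 ratio of 1.56 moved to 1.32 without ins and sst1.1 in the total, 1.91 with spike-ins as the total, 1.74 by mean log2, 2.51 by median over cells, 2.19 in the shared well row and 1.38 with a pseudocount of 5 CPM. On plate 3 the median of 0.84 was 2.001 with spike-ins, 2.12 by mean log2, 1.83 by median over cells, 1.01 without the top cell, 0.65 against both plates' ins+ cells, 0.49 in the shared row and 0.66 with the larger pseudocount. The count of 5 was 8 with spike-ins and by mean log2, and 3 with the ins+ cells of both plates. With spike-ins the median of all genes was 1.17 on plate 3 and 0.40 on plate 4, by mean log2 1.01 on plate 3 and 0.38 on plate 4, so part of these shifts touches all genes. In both settings the plate 3 median of the 10 genes was larger than the plate 4 median, unlike in the main setting.

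Between the ins+ pools the median of 0.15 was 0.36 without cells over 5% other hormones and -0.025 without the cell over 1000 CPM of acinar markers, and the count of 1 was 2 by mean log2, by median over cells and without the top cell, and 0 without the acinar cell. The median of sst1.1+ ins+ against sst1.1+ cells, -0.66, was -0.49 without the hormones, 0.13 with spike-ins, -0.99 in the shared rows, and -0.83 directly or with the ins+ cells of both plates, 2 forms that are the same value; in both, p4hb reversed to -0.35. With a minimum of 10 CPM, the share of all genes over 2-fold higher was 22.3% on plate 4, 12.8% on plate 3 and 19.9% between the ins+ pools, beside 6 of 10, 5 of 10 and 1 of 9 members at that minimum.

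The correlation with hormone load in sst1.1+ ins+ cells was negative in every setting (-0.57 to -0.18), weakest at -0.18 with hormone reads per spike-in read. In sst1.1+ cells the value of 0.10 was 0.61 by Pearson, -0.17 per spike-in read, -0.35 with all hormones in the load and -0.22 without cells over 5% other hormones. The causes were not tested. Settings that left out cells by load or acinar markers were chosen after seeing the data. Cells with 0 to a few reads limit pdia4, p4hb, manf, sdf2l1 and creld2, most of all among ins+ cells. Counting intervals do not cover differences between fish.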
